A study of Mus musculus with 6 samples.

Results

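Transcript levels of 8 genes of the interferon pathway were compared between colonic mucosa of Tlr2-/- mice and of wild-type mice. The genes were the transcription factors Stat2, Irf1, Irf3, Irf7, Irf8 and Irf9 and the feedback inhibitors Usp18 and Socs1. They were chosen by name. Array probes were assigned to genes by transcript accession, through RefSeq or, for 14 probes of the array, through the authors' deposited hit tables. Irf9 was also sought under its older symbol Isgf3g. Another 16063 probes had no matched symbol, so further probes of these genes could be among them. All 8 were measured, by 11 probes of the 41174 on the array, and they stood among 14704 genes tested.

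Both genotypes were C57BL/6 mice at 90 postnatal days, with no treatment given in the labels, and Tlr2, the receptor for bacterial lipoproteins that was deleted, was the only allele named. Mucosa was scraped from the colon with a microscope slide and frozen, and RNA of 1 knockout and 1 wild-type sample was hybridised to each of 4 two-colour expression arrays. Pairs are named by the number of the knockout sample. The knockout carried Cy3 in pairs 1 and 2 and Cy5 in pairs 4 and 5. Whether each sample came from its own animal is not stated, so p-values measure the spread between these samples, which may be partly technical. The breeding of the knockout and wild-type colonies was not stated either, and an effect of colony and one of Tlr2 loss cannot be told apart. In whole mucosa, fewer cells of a type and less RNA per cell cannot be told apart either.

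Interferons of type I and type III switch on Janus kinases that phosphorylate STAT factors, Stat2 among them. Stat2 and Irf9 are parts of the complex ISGF3, which binds the interferon-stimulated response element (ISRE) of antiviral genes. Interferon gamma instead works through the gamma-activated site (GAS), and Irf1 is a classic gene switched on in this way. Irf3 and Irf7 act upstream, since sensor pathways activate them to transcribe interferon genes, and Irf7 is itself induced by ISGF3. Usp18 and Socs1 are feedback inhibitors, acting at the type I receptor and on the Janus kinases. In the intestine, the epithelium responds strongly to type III interferon, and immune cells of the lamina propria respond to type I.

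The promoters of 4 members are shown because they differ in these elements. Each stretch is the 250 bases before the transcription start in RefSeq (GRCm38.p6), 5′ to 3′ on the strand of the gene, and capitals mark a match to GAAANNGAA, the ISRE core, or TTCNNNGAA, the GAS core. Both strands were searched, and the GAS core reads the same on either.
Stat2, chr10:128270248-128270497, plus strand: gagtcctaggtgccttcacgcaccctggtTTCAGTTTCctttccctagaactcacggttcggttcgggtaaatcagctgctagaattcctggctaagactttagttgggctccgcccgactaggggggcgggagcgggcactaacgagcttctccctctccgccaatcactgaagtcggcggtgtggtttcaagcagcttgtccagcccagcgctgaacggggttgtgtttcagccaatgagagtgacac
Irf1, chr11:53769764-53770013, plus strand: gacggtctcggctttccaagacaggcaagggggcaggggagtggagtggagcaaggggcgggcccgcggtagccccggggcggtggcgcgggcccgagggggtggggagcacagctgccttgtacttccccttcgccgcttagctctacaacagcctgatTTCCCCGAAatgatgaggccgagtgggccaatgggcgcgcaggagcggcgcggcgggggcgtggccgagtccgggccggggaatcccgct
Socs1, chr16:10785537-10785786, minus strand: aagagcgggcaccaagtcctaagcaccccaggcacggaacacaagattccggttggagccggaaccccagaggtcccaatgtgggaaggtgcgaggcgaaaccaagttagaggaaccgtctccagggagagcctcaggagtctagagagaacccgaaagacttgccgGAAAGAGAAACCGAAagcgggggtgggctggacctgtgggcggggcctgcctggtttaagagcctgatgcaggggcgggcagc
Irf7, chr7:141266425-141266674, minus strand: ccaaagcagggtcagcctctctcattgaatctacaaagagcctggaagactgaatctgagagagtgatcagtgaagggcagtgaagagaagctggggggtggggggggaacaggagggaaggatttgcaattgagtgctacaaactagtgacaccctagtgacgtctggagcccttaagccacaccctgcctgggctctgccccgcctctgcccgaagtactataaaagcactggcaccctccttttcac

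In Stat2 the capitals mark 1 ISRE core on the reverse strand, TTCAGTTTC, 221 bases before the start. In Irf1 they mark 1 GAS core, TTCCCCGAA, 90 bases before it. In Socs1 they mark 2 ISRE cores that overlap, GAAAGAGAA and GAAACCGAA, 83 and 77 bases before it. The Irf7 window held neither core.

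Promoter windows were at hand for 7 of the 8 members, 10 windows in all, and Usp18 had none. The first of 2 windows of Irf8 held 2 GAS cores, at 171 and 153 bases before the start. The window of Irf3, both windows of Irf9 and the second windows of Irf1 and Irf8 held neither core. Of 32851 windows of this length, 7.13% held an ISRE core and 7.02% a GAS core. A match describes letters and does not show that a factor binds there.

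Tlr2 served as the check of the labels. Its log2 ratio of knockout over wild type was -4.42, -5.31, -5.50 and -4.20 in pairs 1, 2, 4 and 5, so the channel labelled knockout was the low one on every array. Each array held 43379 spots that were not controls, for 41174 probes. Of the probes, 67.3% to 71.4% exceeded background clearly in the knockout channel and 62.9% to 76.2% in the wild-type channel. Over genes, which do not count as independent replicates, log ratios of pair 1 correlated at -0.21, -0.42 and -0.11 with those of pairs 2, 4 and 5, whereas those 3 pairs correlated with each other at 0.43 to 0.57. Pair 1 thus stood apart, and results that rest on it are given without it too. Of 14 markers of colonic epithelium, 13 were measured, and Muc2 had no matched probe. The 5 of 6 adipocyte markers measured had medians of -0.34, -0.04, 0.88 and 2.66 (log2 ratio) in pairs 1, 2, 4 and 5, and the part of such cells in the members' values was not tested. The macrophage and dendritic cell markers Cd68, Clec9a and Siglech were not tested.

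Usp18 and Irf9 were higher in the knockout on all 4 arrays, Irf1 was lower on all 4, and the other 5 members took both directions, although with median centring in place of loess Irf9 and Irf1 took both directions too. Irf1 also took both directions with the processed signals of the scanner software and with the mean of all its probes. Usp18 was on average 2.53-fold higher and Irf9 1.39-fold higher. Over all genes tested, 7.17% were higher on all 4 arrays and 8.41% were lower on all 4. The submitters called a transcript a hit when 2 or more arrays exceeded 1.6-fold and no array lay on the other side of 1. Usp18 was the only one of the 8 members to pass this rule upward, and 0 passed downward. Upward this rule was met by 0.762% of all genes, and downward by 103 of the 14704 genes. By limma with Benjamini-Hochberg adjustment over all genes, 0 of 8 members had an adjusted p under 0.05, as had 0 of all 14704 genes (0%). Even the deleted gene Tlr2 had a limma adjusted p of only 0.315, so this test had little power to call any gene. Unadjusted, 2 members, Usp18 and Irf9, had a limma p under 0.05, against 8.1% of all genes. With 4 arrays an exact sign-flip test cannot give a two-sided p below 0.125.

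**Figure D1:**
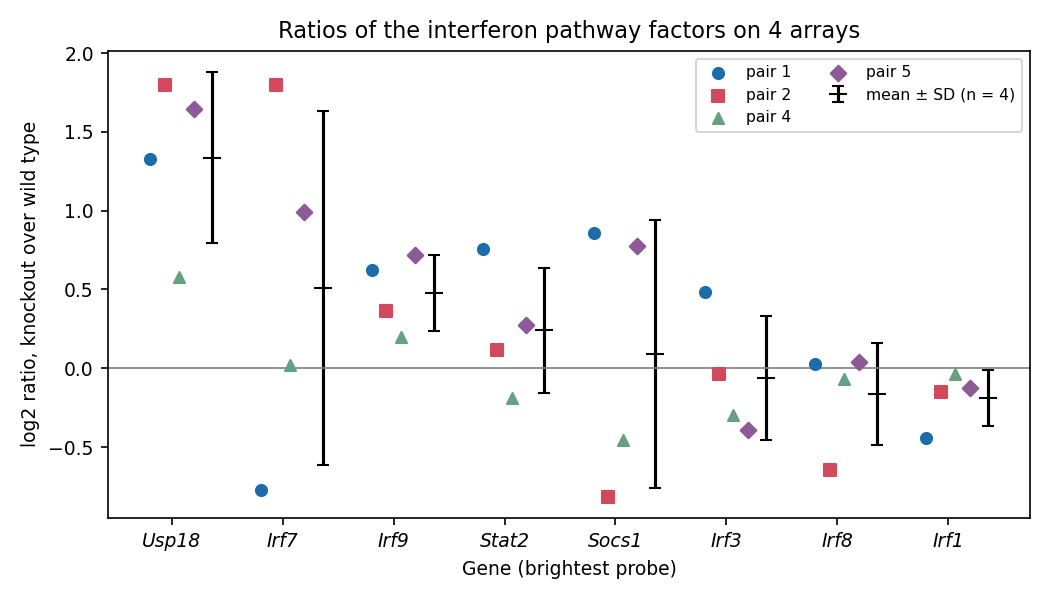
Log2 ratio of knockout over wild type (vertical axis) for the probe used for each of the 8 members, with 1 point per array and the mean ± SD over 4 arrays. The Usp18 points lie between 0.58 and 1.80 and the Irf9 points between 0.20 and 0.72, all above 0 (after loess, but not with median centring for Irf9), whereas the Irf7 points spread from -0.77 to 1.80.

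Of the partners of ISGF3, Irf9, which recognises the DNA element, was at log2 ratios of 0.63, 0.36, 0.20 and 0.72 in pairs 1, 2, 4 and 5 on the brighter of its 2 probes. Its normalised log2 signal was 11.25, 10.94, 10.64 and 11.32 in the knockout channel and 10.62, 10.58, 10.44 and 10.60 in the wild-type channel. All knockout values lay above all wild-type values, although the lowest knockout and the highest wild-type value were close. The mean log2 ratio was 0.48 ± 0.239 (SD, n = 4), with a 95% interval from 0.11 to 0.84 and a limma adjusted p of 0.595. It was 0.49 for the pairs with the knockout in Cy3 and 0.46 for those with it in Cy5. The knockout signals spread over 0.67 log2 units and the wild-type signals over 0.18. When the arrays were centred on their median in place of loess, pair 1 was at -0.36 for Irf9, and Irf9 was then no longer higher on all 4 arrays.

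Stat2, the partner that carries the activation domain of ISGF3, was at 0.76, 0.11, -0.19 and 0.28 on the log2 ratio scale in pairs 1, 2, 4 and 5. Its knockout signals were 10.28, 9.51, 9.40 and 9.96 and its wild-type signals 9.52, 9.39, 9.59 and 9.68 (log2). The groups overlapped, and the highest knockout value was that of pair 1. The mean ratio was 0.24 ± 0.394 (log2, SD, n = 4), with an interval from -0.21 to 0.69 and a limma adjusted p of 0.729. With pair 1 left out the mean was 0.07.

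Irf3, which is present before infection and is activated by phosphorylation, was at 0.48, -0.04, -0.30 and -0.39 in pairs 1, 2, 4 and 5 (log2 ratio). Its knockout signals were 13.13, 12.91, 12.89 and 12.76 and its wild-type signals 12.65, 12.95, 13.19 and 13.15 (log2). The groups overlapped, and only pair 1 was above 0. The mean ratio was -0.06 ± 0.391 (SD, n = 4), with a limma adjusted p of 0.929. The mean was 0.22 for the pairs with the knockout in Cy3 and -0.34 for those with it in Cy5. The positive mean came from pair 1, since pair 2, also with the knockout in Cy3, was at -0.04. Leaving out pair 1 gave a mean of -0.24, whereas leaving out pair 4 or pair 5 put it above 0, at 0.0185 and 0.0485. The 13 epithelial markers had median log2 ratios of 0.34, 0.47, -0.58 and -0.47 in pairs 1, 2, 4 and 5. The sign of this median differed with the dye orientation. The summed intensity of these markers was 544610 to 782980 in the knockout channel and 474310 to 720640 in the wild-type channel. Their part in the values of Irf3 and the other members was not tested. Among them, Krt8, Krt19 and Car1 had nearly the same ratios as each other in pairs 2, 4 and 5, at 0.47, -0.87 and -0.61. Saturated spots were kept, and saturation of these markers was not examined. The marker medians and sums may therefore not measure expression.

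Irf7, the factor that amplifies type I interferon production, had the widest spread of the 8 genes. Its log2 ratios were -0.77, 1.80, 0.02 and 0.99 in pairs 1, 2, 4 and 5. The knockout signals were 11.86, 12.49, 11.69 and 12.80 and the wild-type signals 12.64, 10.70, 11.67 and 11.81 (log2). The groups overlapped, with the highest wild-type signal in pair 1 and the lowest in pair 2. Wild-type signals spread over 1.94 log2 units, more than the knockout signals did. The mean ratio was 0.51 ± 1.12 (log2, SD, n = 4), with an interval from -0.84 to 1.85 and a limma adjusted p of 0.812. Both dye orientations gave a mean of 0.51. When pair 1 was left out, the mean was 0.94 and Irf7 passed the submitters' rule. Without pair 1 this rule passed 388 of all genes upward, against 112 with all 4 arrays. When pair 2 was left out, the mean of Irf7 was 0.08.

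**Figure D2:**
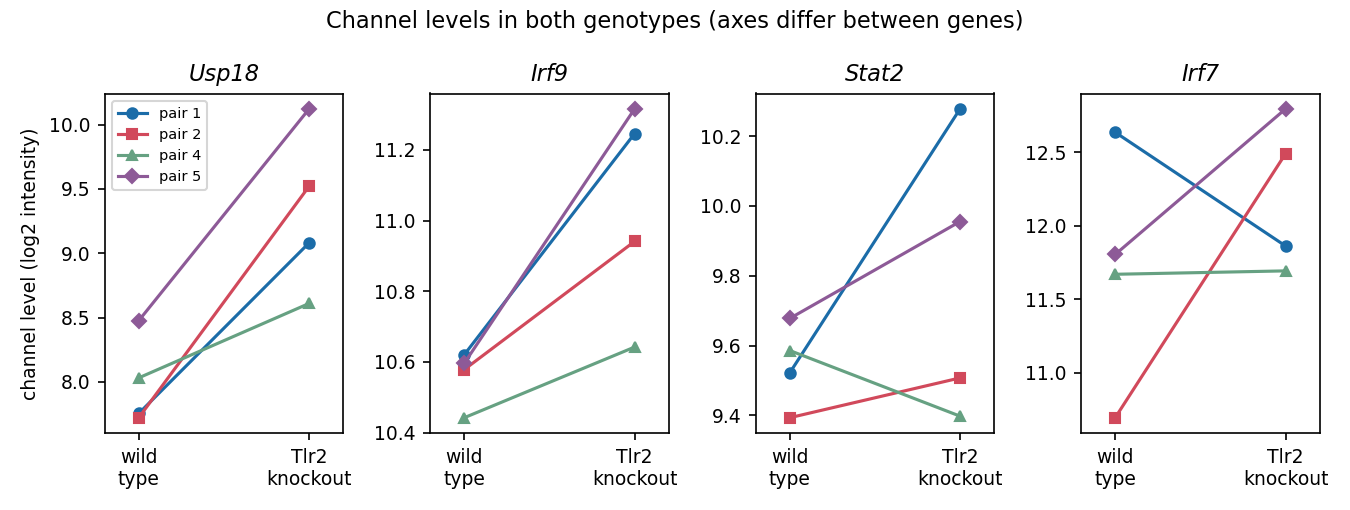
Normalised log2 signal (vertical axes, which differ between genes) of Usp18, Irf9, Stat2 and Irf7 in the wild-type and the knockout channel, with a line joining the samples of each array. For Usp18 and Irf9, here on its brighter probe, all knockout points lie above all wild-type points, and for Irf7 the wild-type points range from 10.70 to 12.64.

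Irf1, a factor induced by interferon gamma that drives antigen-presentation genes, was at -0.44, -0.15, -0.03 and -0.13 in pairs 1, 2, 4 and 5 (log2 ratio) on its brighter probe. Its knockout signals were 14.49, 14.43, 14.91 and 14.93 and its wild-type signals 14.93, 14.58, 14.94 and 15.06 (log2), and the groups overlapped. Every array was below 0, with pairs 2, 4 and 5 close to it. The mean over arrays was -0.19 ± 0.178 (SD, n = 4), 1.14-fold lower, with a limma adjusted p of 0.659, and it was -0.10 without pair 1. With the processed signals of the scanner software pair 4 was at 0.07, and with median centring it was at 0.63, so Irf1 was then not lower on every array.

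Irf8, a factor needed for dendritic cells, macrophages and B cells, was at 0.02, -0.64, -0.07 and 0.04 in pairs 1, 2, 4 and 5 (log2 ratio) on its brighter probe. The knockout signals were 12.73, 12.70, 12.71 and 12.82 and the wild-type signals 12.71, 13.34, 12.78 and 12.78 (log2). The groups overlapped, and 1 wild-type sample, that of pair 2, was higher than the rest. The mean was -0.16 ± 0.324 (SD, n = 4), with a limma adjusted p of 0.799, and it was -0.0014 without pair 2.

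The median ratios of markers of the cells in which Irf8 is made were, like the brighter Irf8 probe, lowest in pair 2. The second, dimmer Irf8 probe was at 0.15 in pair 2 and was lowest in pair 1, at -0.75. The median log2 ratio of 15 measured macrophage and dendritic cell markers, of 18 listed, was 0.12, -0.41, -0.08 and -0.01 in pairs 1, 2, 4 and 5, and 7 of the 15 were lowest in pair 2. Their summed intensity was 3957 to 4782 in the knockout channel and 4869 to 6306 in the wild-type channel. The median of 8 measured B and plasma cell markers, of 10 listed, was 0.17, -0.65, -0.14 and -0.08, and 6 of the 8 were lowest in pair 2. Their summed intensity was 1030 to 2214 in the knockout channel and 1296 to 2436 in the wild-type channel. Over all genes, 22.5% were lowest in pair 2. The part of these cells in the Irf8 values was not tested.

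Usp18, the protease that removes Isg15 from proteins and blocks signalling at the type I receptor, was the member with the largest mean ratio. Its log2 ratios were 1.33, 1.80, 0.58 and 1.65 in pairs 1, 2, 4 and 5. The knockout signals were 9.08, 9.52, 8.61 and 10.12 and the wild-type signals 7.75, 7.72, 8.03 and 8.48 (log2), so the groups did not overlap. The smallest difference was in pair 4, although with median centring it was in pair 1, at 0.65. The mean was 1.34 ± 0.543 (log2, SD, n = 4), with an interval from 0.73 to 1.95 and a limma adjusted p of 0.595. With single pairs left out the mean ranged from 1.18 to 1.59. In the authors' deposited table, whose array numbers name no sample, Usp18 had linear ratios of 2.81, 4.62, 1.84 and 4.57 and an average of 3.46. It was the 1 member among 328 transcripts listed as higher there, and 0 members were among the 277 listed as lower in the authors' deposited table. The 2 members whose channel values did not overlap on the probe used were Usp18 and Irf9, and 2.19% of all genes had every knockout value above every wild-type value.

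Socs1, which binds Janus kinases and shuts them off, was at 0.86, -0.81, -0.45 and 0.77 in pairs 1, 2, 4 and 5 (log2 ratio). Its knockout signals were 9.73, 8.78, 9.41 and 10.17 and its wild-type signals 8.87, 9.59, 9.87 and 9.39 (log2), and the groups overlapped. Pairs 1 and 5 were above 0 and pairs 2 and 4 below it, so each dye orientation held 1 of each. The mean was 0.09 ± 0.851 (SD, n = 4), with an interval from -0.94 to 1.12 and a limma adjusted p of 0.97. It was below 0 when pair 1 or pair 5 was left out, at -0.17 and -0.14, and 0.39 when pair 2 was left out.

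The feedback inhibitors therefore differed from each other within arrays. Usp18 exceeded Socs1 by 0.47, 2.61, 1.03 and 0.87 on the log2 ratio scale in pairs 1, 2, 4 and 5, a mean of 1.25 ± 0.942 (SD, n = 4). Irf9 exceeded Irf1 by 1.07, 0.51, 0.23 and 0.85, a mean of 0.67 ± 0.368. Irf7 minus Irf3 was -1.25, 1.83, 0.32 and 1.38, and so took both signs. These differences were not tested, since the members were looked at with their values known.

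Irf1, Irf8 and Irf9 each had a second, dimmer probe for the same gene, and all 11 probes were well above background in both channels on all 4 arrays, with 0 saturated. The dimmer Irf9 probe was at -0.35, 1.25, 0.55 and 0.32 in pairs 1, 2, 4 and 5 (log2 ratio), with a mean of 0.44 ± 0.662 (SD, n = 4). Its mean was close to that of the brighter probe, but its sign differed in pair 1. Its channel values overlapped, at 7.23 to 8.06 in the knockout and 6.81 to 7.58 in the wild type (log2). The dimmer Irf1 probe was at -1.42, 0.67, 0.23 and -0.26, and the dimmer Irf8 probe at -0.75, 0.15, 0.27 and 0.03.

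All 3 dimmer probes lay below their brighter partners in pair 1 and above them in pairs 2 and 4. The dimmer minus the brighter ratio (log2) was -0.97, 0.82, 0.26 and -0.13 for Irf1, -0.78, 0.79, 0.34 and -0.01 for Irf8 and -0.98, 0.89, 0.35 and -0.40 for Irf9. Over 5111 genes with at least 2 probes, the median of this difference was -0.17, 0.10, 0.04 and -0.0065 in pairs 1, 2, 4 and 5, with SDs of 0.551, 0.438, 0.464 and 0.33. A difference below -0.7 in pair 1 together with one above 0.7 in pair 2 occurred in 4.13% of these genes. The limit of 0.7 lay just under the members' own values, so all 3 met it and this share does not test them. Over genes, the differences of pair 1 and pair 2 correlated at -0.49 (Pearson), so opposite signs were not particular to the members. The cause was not tested, and the positions of the probes in the transcripts were not used here.

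**Figure D3:**
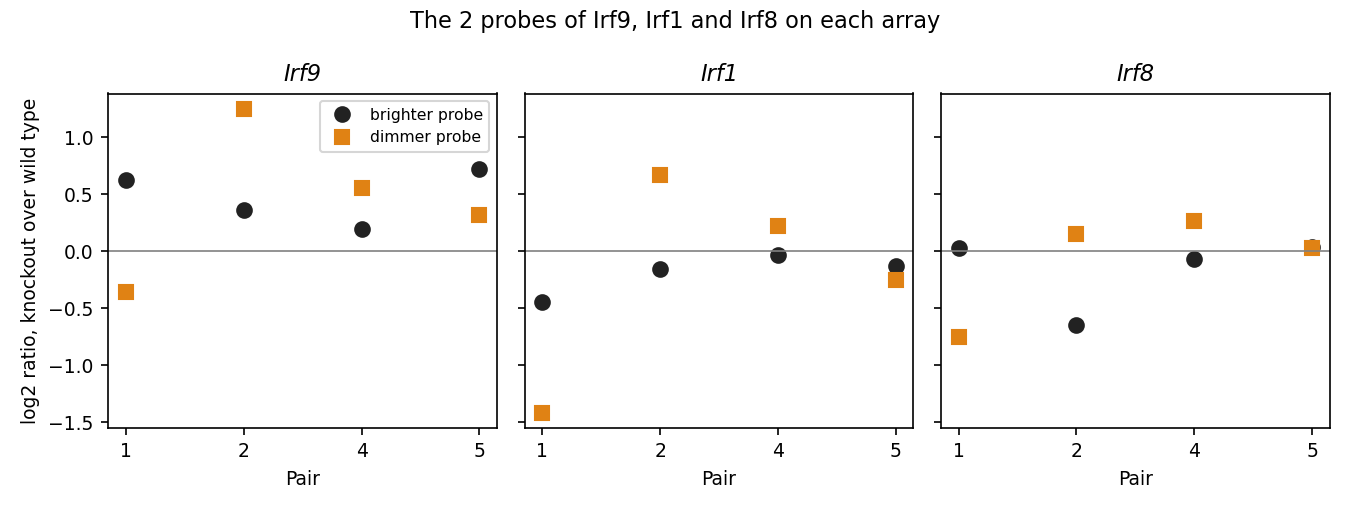
Log2 ratio of knockout over wild type (vertical axis) by pair for the brighter and the dimmer probe of Irf1, Irf8 and Irf9. In pair 1 each dimmer probe lies 0.78 to 0.98 below its partner, and in pair 2 it lies 0.79 to 0.89 above it.

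The other genes of the pathway were grouped by role, and no list was tested as a set. The counts below stand beside shares over all genes of 7.17% higher on all 4 arrays and 8.41% lower on all 4. The submitters' rule upward was met by 0.762% of all genes. Among 19 interferon ligands 12 had a matched probe and 7 were measured. Of these 0 were higher on all 4 arrays, 3 were lower on all 4, and the median of their mean log2 ratios was -0.10. The summed intensity of the 7 ligands was 943.15 to 1047.7 in the knockout channel and 1058.1 to 1111.5 in the wild-type channel. Their probes were thus dim, with an offset of 50 added, and their small ratios say little about change. Ifnz, a type I interferon also called limitin, was at -0.24 ± 0.119, Ifna2 at -0.24 ± 0.284 and Ifna5 at -0.09 ± 0.065 (SD, n = 4). Ifnb1 and Ifng were not tested. Of the receptors and Janus kinases 8 of 9 were measured, and 0 were higher or lower on all 4 arrays. Jak2, the kinase of the interferon gamma receptor, was at 0.32 ± 0.599, Ifnlr1, the type III receptor chain, at 0.11 ± 0.195, and Tyk2, a kinase of the type I receptor, at -0.17 ± 0.315.

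All 6 other STAT factors were measured, of which 1 was higher on all 4 arrays and passed the submitters' rule. Among them Stat3 was at -0.43 ± 0.589 and Stat5a at 0.13 ± 0.21 (mean log2 ratio, SD, n = 4), and neither kept 1 direction over the arrays. Of 4 other IRF factors 3 were measured and 0 kept 1 direction. Irf2, which competes with Irf1 for its sites, was at -0.22 ± 0.374 and Irf5 at -0.01 ± 0.231. Of 18 other negative regulators 17 were measured and 0 kept 1 direction, beside Usp18, which did. Among them the phosphatases Ptpn2 and Ptpn1 were at -0.21 ± 0.284 and 0.18 ± 0.246, and Pias1, an inhibitor of STAT signalling, was at 0.17 ± 0.307.

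Of 5 genes of Isg15 conjugation, the modification that Usp18 reverses, 4 were measured, and 2 of the 4 were higher on all 4 arrays and passed the submitters' rule. Isg15 itself was at 1.30, 1.38, 0.38 and 1.39 in pairs 1, 2, 4 and 5 (log2 ratio), with a mean of 1.12 ± 0.49 (SD, n = 4). Ube2l6, the conjugating enzyme, was at 0.59 ± 0.417 and Trim25, a ligase, at 0.19 ± 0.275. Of 15 kinases and adaptors upstream of Irf3 and Irf7, 13 were measured and 1, Azi2, was higher on all 4 arrays, at 0.75 ± 0.356. Tbk1, the kinase that phosphorylates Irf3, was at 0.51 ± 0.441 and Chuk at 0.44 ± 0.477, and both were below 0 in pair 1.

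Among 38 target genes of ISGF3, 36 were measured, of which 22 were higher on all 4 arrays, 1 was lower on all 4, and 14 passed the submitters' rule upward and 0 downward. The median of their mean log2 ratios was 0.63, against -0.0084 over all genes tested and 0.17 over the 8 members. The members' median was -0.02 without pair 1 and 0.33 without pair 4. Ddx60, a helicase of antiviral sensing, was at 1.86 ± 0.864, Ifit2 at 1.19 ± 0.312 and Rsad2 at 1.12 ± 0.282 (SD, n = 4). The array medians of the targets were 0.63, 0.71, 0.40 and 0.86 in pairs 1, 2, 4 and 5. After loess, 19 of the 36 were lowest in pair 4, where Usp18, Irf9 (brighter probe) and Isg15 were lowest too. With median centring Usp18 and Irf9 were lowest in pair 1, at 0.65 and -0.36, against 1.03 and 0.91 in pair 4. The dimmer Irf9 probe was lowest in pair 1 as well, at -0.35. Over all genes 25.3% were lowest in pair 4 and 38.9% in pair 1.

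Among 29 targets of interferon gamma and Irf1, 27 were measured, of which 6 were higher on all 4 arrays, 0 were lower on all 4, and 2 passed the submitters' rule upward. The median of their means was 0.08, and it was 0.40 with the processed signals. Gbp3, a guanylate-binding protein, was at 1.45 ± 0.40, and the immunity-related GTPases Igtp and Irgm2 were at 0.75 ± 0.107 and 0.45 ± 0.133 (SD, n = 4). The markers of T and NK cells, which make interferon gamma, had medians of 0.09, -0.62, -1.16 and -0.22 in pairs 1, 2, 4 and 5 over 10 of 12 markers measured. Of the 10, 3 were lower on all 4 arrays, against 8.41% of all genes. The summed intensity of the 10 markers was 1465 to 2461 in the knockout channel and 2092 to 3239 in the wild-type channel. The part of these cells in the values above was not tested. In every one of these pathway lists limma called 0 genes at an adjusted p under 0.05. At an unadjusted limma p under 0.05 the count was 22 of 36 ISGF3 targets and 4 of 27 interferon gamma targets, against 8.1% of all genes.

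**Figure D4:**
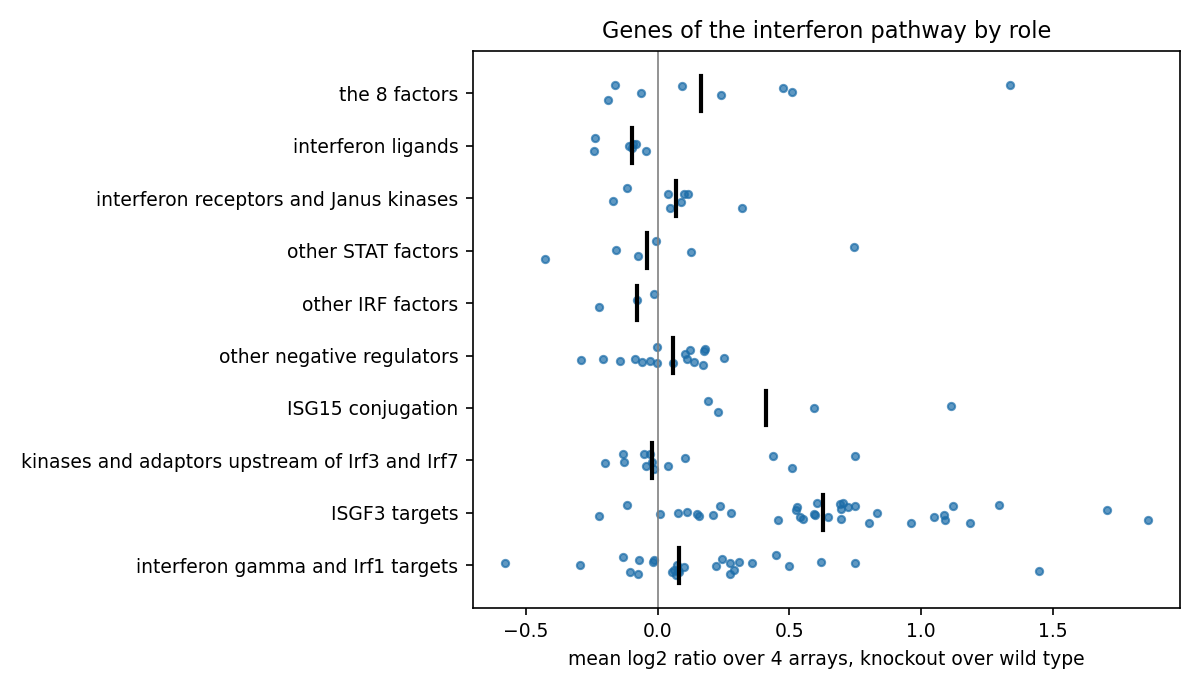
Mean log2 ratio of knockout over wild type over 4 arrays (horizontal axis) for each measured gene of the members and of 9 pathway lists, with a line at each list's median. The ISGF3 targets have a median of 0.63, and the medians of the other lists lie between -0.10 and 0.41.

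The genes whose 4 log2 ratios lay nearest to those of Usp18, by root mean square distance over the 4 arrays, were Ifit1 at 0.186, Apol9b at 0.236 and Isg15 at 0.262. Ifit1 was at 1.45, 1.91, 0.26 and 1.56 in pairs 1, 2, 4 and 5 (log2 ratio), so it too was lowest in pair 4. The genes nearest to Irf7 were Hoxa11 at a distance of 0.328, Hspa1b at 0.341 and Mcu at 0.386. Hoxa11, a Hox transcription factor, was at -0.93, 1.88, 0.61 and 1.23, and Hspa1b, a heat-shock chaperone, at -0.26, 1.73, 0.44 and 1.13. Each of these, like Irf7, was lowest in pair 1 and highest in pair 2.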

How the data were processed

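RNA of 4 knockout and 4 wild-type mucosa samples was measured on 4 two-colour arrays of 1 slide. The authors deposited spot intensity per channel made with Agilent Feature Extraction. The file headers give its version as 10.5.1.1, whereas the submitters' processing notes name 8.5.1.1. The deposited files also hold a log10 ratio of Cy5 over Cy3, which served only as a check of direction. The authors deposited hit tables with linear ratios of knockout over wild type, and their normalisation is not stated. The methylation arrays were not analysed here.

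Median spot signals were background corrected (normexp, offset 50) and loess normalised in R 4.3.3 with limma 3.58.1. Control and outlier spots were left out and saturated spots kept. The filter required a signal clearly over background in 1 genotype's channel on 2 or more arrays, which 21312 probes with a symbol passed. The brightest probe stood for its gene. Channel signals are after loess and Aquantile scaling (log2). Genes were tested with lmFit and eBayes with a dye term, adjusted over 14704 genes. The procedure was tested on simulated data.

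Named genes are all 8 members, the 3 smallest limma p-values of each pathway list, the 3 nearest genes of members with a mean log2 ratio of at least 0.5 in size, and Tlr2. Some genes picked by this rule are left unreported but were counted in their lists. Ifnb1, Ifng and Muc2 were added as untested genes. The members and lists were chosen with earlier results of these data known. The alternatives, 11 in all, changed the background correction, normalisation, dye term, probe filter and probe choice or left out 1 array.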

Additional observations from a re-analysis of the deposited data

Results flagged for a closer look

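For Irf8, the brighter probe was at -0.64 in pair 2 (log2 ratio of knockout over wild type), far from the other 3 arrays, which lay between -0.07 and 0.04. The gap to the nearest array was 0.844 of the whole range, above the critical value of Dixon's test for 4 values, 0.829. Of 11 probes looked at in this way, 1 stood out, and chance alone marks about 1 in 20 groups. The other Irf8 probe was at 0.15 in pair 2.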

How the results depend on the processing

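Over 11 alternatives limma called 0 members. Usp18 stayed higher, with a mean log2 ratio of 1.18 to 1.69 and limma adjusted p-values from 0.116 to 1.00, as did Irf9, at 0.38 to 0.57 (0.213 to 1.00), Irf7, at 0.08 to 0.94, and Stat2, at 0.07 to 0.38. Irf1 ranged from -0.36 to -0.10 and Irf8 from -0.30 to -0.0014. Socs1 was at -0.17 without pair 1 and -0.14 without pair 5, and up to 0.39 when other pairs were left out. Irf3 was at 0.0185 without pair 4 and 0.0485 without pair 5, and down to -0.24 when other pairs were left out. Of 88 member means, 84 kept their sign and 4 did not. Many of these could not change. Dropping the dye term, dropping the filter on dim probes and using the strict filter left every member ratio as it was. The mean of all probes changed only Irf1, Irf8 and Irf9. The count of 84 therefore overstates how stable the signs were.

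Members higher on all arrays were 1 with median centring, when Irf9 dropped out, and 2 to 3 with 1 pair left out. Members lower on all arrays were 0 with processed signals, 0 with median centring and 0 with the mean of all probes, and 1 to 2 with 1 pair left out. Members passing the submitters' rule were 1 to 2 with 1 pair left out, with Irf7 added without pair 1. Over all genes the rule upward gave 112 genes, against 270 with processed signals, 45 with median centring and 388 without pair 1. Limma called 0 genes, against 1 without background subtraction, 1 with processed signals, 1 with median centring, 1 with the strict filter and 3 without a dye term. Causes were not tested. The median of the interferon ligands was -0.12 without background subtraction and -0.22 with processed signals.

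No paired analysis was possible because the replicate numbers are shared only between expression and methylation arrays, and the latter were not analysed here. Within an expression array the log ratio itself pairs 1 knockout with 1 wild-type sample. With 4 arrays and 2 residual degrees of freedom per gene, precision is low. All member probes were above background.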
